A study of Mus musculus with 135 samples.

Results

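The set described here holds 10 genes listed as megakaryocyte and platelet priming genes in haematopoietic stem cells (HSCs): *Itga2b*, *Itgb3*, *Gp9*, *Gp1ba*, *Selp*, *Vwf*, *Pf4*, *Clu*, *F2r* and *Sdpr*. They are 10 of the 15181 genes in the deposited count table and were chosen by name as platelet-lineage genes, not by a threshold. Earlier results of these same cells were known when they were listed, and *Clu*, *Selp*, *Sdpr* and *Itgb3* are genes that the study itself picked out for being raised in old HSCs, so the number of rises in the set is not independent evidence of its direction. The question is how level, share of expressing cells and joint expression of these genes differed between the young and the old animal.

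The cells were bone marrow HSCs sorted as Lin-Sca-1+c-Kit+CD150+CD48-, from 1 young mouse aged 2 to 3 months and from 1 old mouse aged 20 to 25 months, both C57BL/6 and both carrying the *Vwf-EGFP* reporter, a bacterial artificial chromosome transgene in which the *Vwf* locus drives a green fluorescent protein. Single cells were captured on a C1 microfluidic chip, and polyadenylated RNA was amplified along the whole transcript and sequenced. Of 61 young and 74 old cells, the 52 young and 62 old cells that met the study's quality limits were used. Age, sex, mouse and capture run cannot be told apart. No test between the ages was therefore made, and an SD given below is the spread over the cells of 1 mouse.

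Megakaryocytes arise from HSCs and shed platelets, the cell fragments that plug a damaged vessel. Platelets stick to the vessel wall and to each other through surface glycoproteins and integrins, and they release adhesive and inflammatory proteins from granules once thrombin or collagen has activated them. Transcription of such genes in an uncommitted stem cell is called lineage priming. GATA, ETS and RUNX factors are known regulators of megakaryocyte genes.

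The depth was 273236 to 5688706 counted reads in a young cell (median 2798989) and 276316 to 4086659 in an old one (median 2116023). A gene counted as expressed in a cell when its log2(CPM + 1) was above 2, CPM being the count scaled to 1e+06 counted reads of that cell. At that limit a median of 4116 genes was expressed per young and 3902 per old cell. Among the sort markers, *Kit* passed the limit in 49 of the 52 young and in 61 of the 62 old cells, *Slamf1* (CD150) in 9 and 15, *Ly6a* (Sca-1) in 28 and 43, and *Cd48* in 1 and 0. Of the sex-linked genes, *Xist* passed this limit in 50 young and 8 old cells and any of 4 genes of the Y chromosome in 2 young and 58 old cells. Most young cells thus had a female and most old cells a male pattern. Sex therefore cannot be told apart from age here, and its part in the results was not tested. The reads carry no molecular identifiers, and every interval below (95%, exact Clopper-Pearson for a share and exact Poisson for a count) covers counting error only.

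Promoters are shown for the genes with the largest differences between the ages, *Sdpr* and *Selp*, and for *Itga2b* and *Pf4*, the pair with the highest correlation in young cells. Each is the 250 bases before the RefSeq start on GRCm38.p6, written 5′ to 3′ on the gene's strand, and capitals mark the motifs searched on either strand. For ETS factors the letters AGGAAG were searched. For factors of the GATA family they were AGATAA and for RUNX factors TGTGGT.
Sdpr (RefSeq name Cavin2, chr1:51288876-51289125, plus strand): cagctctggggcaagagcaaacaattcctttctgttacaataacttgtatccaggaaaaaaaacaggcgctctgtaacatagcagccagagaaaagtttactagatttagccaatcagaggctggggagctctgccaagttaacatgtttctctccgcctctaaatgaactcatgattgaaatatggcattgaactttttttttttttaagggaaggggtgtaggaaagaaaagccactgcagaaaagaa
Selp (chr1:164115014-164115263, plus strand): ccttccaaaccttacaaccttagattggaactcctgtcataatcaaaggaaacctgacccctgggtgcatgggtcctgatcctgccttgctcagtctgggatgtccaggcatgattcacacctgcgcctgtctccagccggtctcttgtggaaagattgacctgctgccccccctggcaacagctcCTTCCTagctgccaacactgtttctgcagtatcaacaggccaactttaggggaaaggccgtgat
Itga2b (chr11:102469884-102470133, minus strand): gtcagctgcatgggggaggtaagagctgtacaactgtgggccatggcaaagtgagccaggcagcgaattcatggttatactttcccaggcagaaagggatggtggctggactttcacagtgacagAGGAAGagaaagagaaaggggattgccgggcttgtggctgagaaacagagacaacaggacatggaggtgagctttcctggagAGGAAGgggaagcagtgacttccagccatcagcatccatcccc
Pf4 (chr5:90772185-90772434, plus strand): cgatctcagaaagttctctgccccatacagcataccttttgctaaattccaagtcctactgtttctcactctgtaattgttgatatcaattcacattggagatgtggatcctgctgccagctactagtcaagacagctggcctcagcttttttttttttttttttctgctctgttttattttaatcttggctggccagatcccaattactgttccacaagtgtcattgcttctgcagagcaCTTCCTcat
A promoter was found for 7 of the 10 genes, also for *Gp9*, *Gp1ba* and *F2r*. AGGAAG was present in 5 of the 7, against 29.5% of 32851 promoter windows of the same length, TGTGGT in 2 of 7 against 14%, and AGATAA in 0 of 7 against 9.99%. Other spellings of these motifs were not searched. The *Gp9* window (chr6:87777820-87778069) lay inside the span given below for the gene. The *Gp1ba* window (chr11:70638872-70639121) ran past the start of its span at 70639102. Both windows are among the 5 with AGGAAG. No position was shared by 2 of the motifs searched. The *Itga2b* window held AGGAAG at 125 and at 43 bases before the start on the plus strand of the gene, and the *Selp* window held it on the minus strand beginning 64 bases before the start. None of the 3 motifs lay in the *Sdpr* window, although *Sdpr* had the largest difference of the set, and a match or its absence is a description of these letters only.

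Of the 10 genes, 9 had a higher mean level in the old HSCs, against 46.2% of all genes, and the middle difference (old mean less young mean, both of log2(CPM + 1)) was 1.54 against -0.02 over all 15014 genes with a count. A rise of at least 1 on this scale was seen for 5 of 10 genes (*Sdpr*, *Selp*, *Itgb3*, *Clu* and *F2r*), where 3.91% of all genes rose as far. The count was 8 of 10 with a pseudocount of 0.1 CPM, where 8.21% of all genes rose as far, and 8 of 10 as the log2 ratio of mean CPM, where 19.8% did. The share of expressing cells was higher in old cells with intervals apart for the same 5 genes, against 0.899% of all genes. The other 5 genes, *Vwf*, *Itga2b*, *Gp9*, *Pf4* and *Gp1ba*, had overlapping intervals. The count of genes with intervals apart was 4 in each of 3 other settings. *Itgb3* fell away when 1 read was enough, *F2r* at a limit of 5 and *Clu* in cells without a cell cycle gene. With TMMwsp scaling the count was 6. The share over all genes was not computed for these settings. The set therefore did not move as 1 block, and each gene's highest young cell lay above the median old cell, so that the cells of both ages overlapped for all 10 genes.

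**Figure D1:**
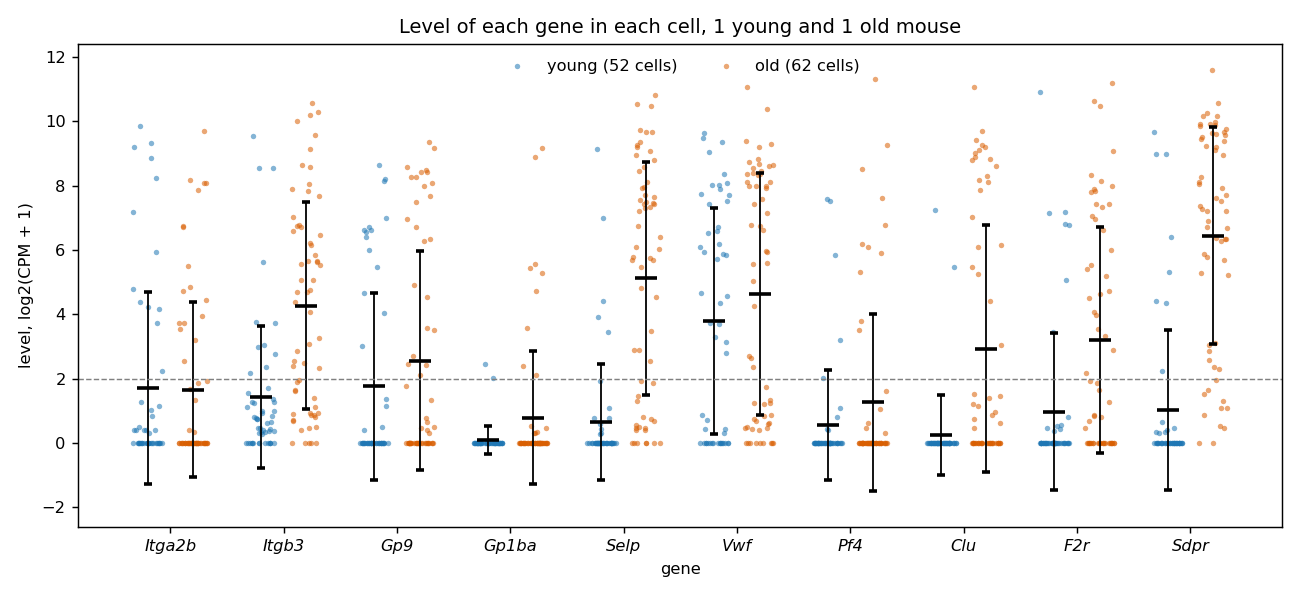
Level of the 10 genes as log2(CPM + 1) on the vertical axis, 1 point per cell (52 young in blue, 62 old in orange), with black bars for the mean and SD over cells and a dashed line at the limit of 2. Many young cells lie at 0 for every gene, the cells of the old mouse for *Sdpr*, *Selp* and *Itgb3* lie mostly above the line, and the points of *Itga2b* overlap over nearly the whole range, with means of 1.72 and 1.66.

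The adhesion receptors divided. *Itga2b* (chromosome 11, 102453297 to 102469883) encodes integrin αIIb, also called CD41, which pairs with the product of *Itgb3* to form the platelet fibrinogen receptor. Its level ran from 0 over a median of 0 to 9.85 in young and from 0 over a median of 0 to 9.71 in old cells. The mean level was 1.72 ± 2.97 (SD, n = 52 cells) and 1.66 ± 2.73 (SD, n = 62 cells), and 13 young (25.0%, interval 14 to 38.9) and 17 old cells (27.4%, 16.9 to 40.2) expressed it. Young and old cells thus overlapped over nearly the whole range, and the difference of -0.05 placed the gene at 8152 of 15014. *Itgb3*, its partner integrin β3, had a median level of 0.69 in young and of 4.53 in old cells, with highest cells of 9.53 and 10.56. Both subunits passed the limit together in 5 young and 9 old cells, and of the old cells that expressed *Itgb3*, 31 of 40 did not express *Itga2b*.

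*Itgb3* also differed from the other raised genes in its low counts. At least 1 *Itgb3* read was counted in 38 of 52 young cells, but in 27 of these the level stayed at or below the limit. In old cells 57 of 62 had a read and 17 of these stayed at or below the limit. The gene was therefore detectable in most cells of both ages, and the mean level among expressing cells was 4.83 in young and 6.17 in old cells.

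*Gp9* and *Gp1ba* encode subunits of the glycoprotein Ib-IX-V complex, the platelet receptor for von Willebrand factor. *Gp9* (chromosome 6, 87776131 to 87779786) ran from 0 over a median of 0 to 8.63 in young and from 0 over 0.36 to 9.36 in old cells, with means of 1.76 ± 2.90 (SD, n = 52 cells) and 2.56 ± 3.40 (SD, n = 62 cells). It was expressed in 14 young (26.9%, 15.6 to 41) and 24 old cells (38.7%, 26.6 to 51.9). The intervals overlapped, and the mean level among expressing cells was nearly equal, 6.29 in young and 6.37 in old cells.

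*Gp1ba* (chromosome 11, 70639102 to 70643986) was the gene of the set with the fewest reads. Its 52 young cells together held 20 reads (interval 12.2 to 30.9) in 2 cells, and the highest of them had a level of 2.47. The old cells held 3088 reads in 14 cells, 9 of which expressed the gene (14.5%, 6.86 to 25.8, against 3.85%, 0.469 to 13.2, in young). The highest old cell reached 9.16 and gave 49.4% of all old reads, so the summed count rests on few cells and the shares overlap in their intervals.

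*Selp* encodes P-selectin, which is stored in platelet granules and binds leukocytes once it reaches the surface. Its median level was 0 in young and 5.90 in old cells, with a young maximum of 9.13 and an old maximum of 10.81, and the mean rose by 4.47. Among the young cells 1 cell, F10, gave 74.5% of the 2030 *Selp* reads. Over expressing cells only, the mean level was 5.58 for the 5 young and 7.29 for the 42 old cells, so both share and level in expressing cells were higher in the old. *Selp* overlaps the RefSeq gene *Gm16548*, and whether reads were counted by strand is not given in the sources used here.

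**Figure D2:**
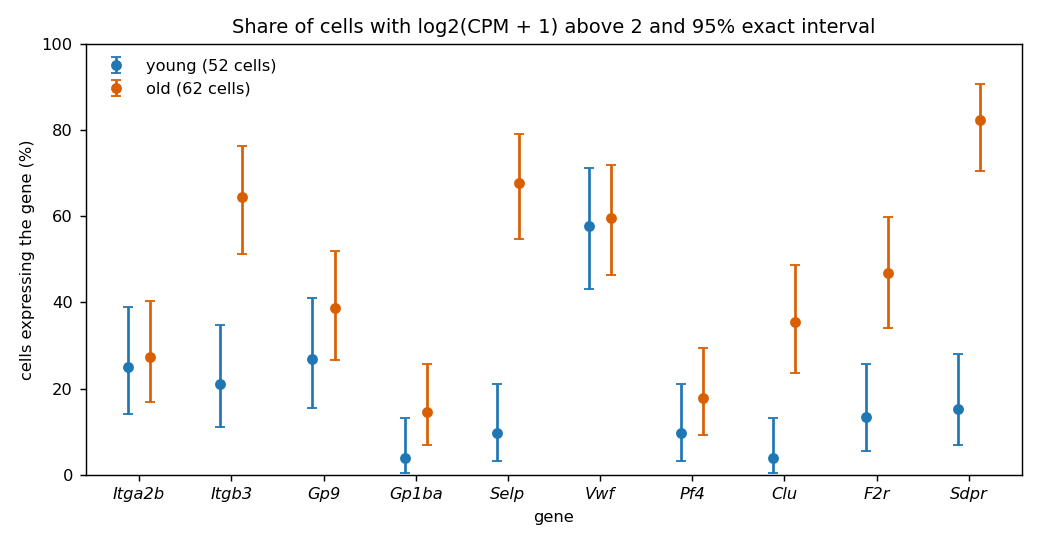
Share of cells expressing each gene in percent (points) with its 95% exact interval (bars), young in blue and old in orange. The intervals are apart for *Itgb3*, *Selp*, *Clu*, *F2r* and *Sdpr* and overlap for the other 5, with *Vwf* at 57.7% and 59.7%.

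Among the granule and secreted products, *Vwf* (chromosome 6, 125552948 to 125686679) encodes von Willebrand factor, the adhesive protein that tethers platelets to collagen. It was the gene of the set expressed in the most young cells, 30 of 52 (57.7%, 43.2 to 71.3), and in old cells the share was 37 of 62 (59.7%, 46.5 to 71.9). Its level ran from 0 over a median of 3.72 to 9.65 in young and from 0 over 5.58 to 11.08 in old cells. The shares were within 1.99 percentage points of each other, whereas the mean level was 3.79 ± 3.51 (SD, n = 52 cells) in young and 4.63 ± 3.75 (SD, n = 62 cells) in old cells. The difference of 0.85 is smaller than either SD, as was the difference of 2.23 for *F2r*, which is among the raised genes.

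The *Vwf* difference lay in cells at both ends of the scale. The mean level among expressing cells was 6.47 in young and 7.40 in old cells, and cells with at least 1 *Vwf* read but a level at or below the limit numbered 5 of 52 in young and 16 of 62 in old. Cells with no *Vwf* read at all were correspondingly fewer in the old, since a read was counted in 35 young (67.3%) and 53 old cells (85.5%). Whether reads assigned to *Vwf* came in part from the reporter transgene, which both mice carried, was not tested.

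*Pf4* (chromosome 5, 90772435 to 90773383) encodes platelet factor 4, an abundant chemokine of platelet granules. Its median was 0 in both ages, with highest cells of 7.60 in young and 11.31 in old, and means of 0.56 ± 1.71 (SD, n = 52 cells) and 1.26 ± 2.75 (SD, n = 62 cells). It was expressed in 5 young (9.62%, 3.20 to 21) and 11 old cells (17.7%, 9.20 to 29.5). A single old cell, H8, gave 59% of the 8426 old *Pf4* reads, and the intervals of the shares overlap.

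*Clu* encodes clusterin, a secreted chaperone protein that platelets carry in their granules. In young HSCs it had reads in 2 cells only, both of them expressing, and F1 gave 83.9% of the 579 reads. In old cells the median was 0.54 and the maximum 11.07, and the mean level among the 22 expressing cells was 7.81. The old cells thus fell into a majority near 0 and a minority at high levels, with 40 of 62 old cells not expressing it.

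*F2r* (chromosome 13, 95601780 to 95618466) encodes the thrombin receptor PAR1, a signalling receptor, and its use by mouse platelets was not tested here. Its level ran from 0 over a median of 0 to 10.92 in young and from 0 over 1.75 to 11.18 in old cells. The mean was 0.97 ± 2.44 (SD, n = 52 cells) and 3.20 ± 3.52 (SD, n = 62 cells), a difference of 2.23 at place 63 of 15014. It was expressed in 7 young (13.5%, 5.59 to 25.8) and 29 old cells (46.8%, 34 to 59.9). The mean level among expressing cells was 6.76 in young and 6.49 in old cells, and 6.07 in the young without cell B7, which turned the order. Of the 12521 young *F2r* reads, 88.0% came from cell B7, which also gave 64% of the young *Itgb3* reads.

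*Sdpr*, named *Cavin2* in current RefSeq, encodes a protein of the coat of caveolae, small pits of the cell membrane. Its median level was 0 in young and 7.24 in old cells, and the young maximum was 9.68 and the old 11.60. Reads were counted in 60 of 62 old and 14 of 52 young cells, and no old cell gave more than 9.84% of the 51659 old reads. The difference of 5.43 in mean level was the largest of all 15014 genes. *Sdpr* overlaps the RefSeq gene *9330175M20Rik* on the same stretch of chromosome, and whether reads of that gene were counted for *Sdpr* was not tested.

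Ordered by share of expressing cells, the young set began with *Vwf*, whose interval (43.2 to 71.3) lay above those of all others, followed by *Gp9*, *Itga2b* and *Itgb3*, which did not differ beyond their intervals. In the old set *Sdpr* (82.3%) came first, then *Selp* (67.7%), *Itgb3* (64.5%) and *Vwf* (59.7%), neighbours whose intervals overlap. Levels of different genes are comparable only per length of transcript. As mean CPM per kilobase, *Gp9* was highest in young cells with 37.8, followed by *Itga2b* with 18, and *Gp1ba* was lowest with 0.054. In old cells *Sdpr* was highest with 129, *Pf4* stood at 112, *Gp9* at 85.3 and *Clu* at 81.6, *Itga2b* stood at place 9 of 10 with 10.8, and *Gp1ba* was again lowest with 7.25. Without the cell highest for the gene, the old values were 43 for *Pf4*, 6.97 for *Itga2b* and 3.92 for *Gp1ba*, so the high place of *Pf4* rested on cell H8, and the young *Gp1ba* value was 0.022.

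The number of the 10 genes expressed in the same cell differed between the ages. The mean of this number is the sum of the single-gene shares given above, so it is not separate evidence of a difference. Those shares include the genes that the study had picked for being raised. Young cells expressed between 0 and 7 of the 10 genes, with a median of 1.5 and a mean of 1.87 ± 1.68 (SD, n = 52 cells). Old cells expressed between 0 and 10, with a median of 4.5 and a mean of 4.55 ± 2.09 (SD, n = 62 cells). At least 3 genes were expressed in 14 young (26.9%, 15.6 to 41) and 49 old cells (79.0%, 66.8 to 88.3), and at least 5 in 3 young (5.77%, 1.21 to 15.9) and 31 old cells (50%, 37 to 63). None of the 10 was expressed in 11 young cells and in 1 old cell, and all 10 together in 1 old cell.

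**Figure D3:**
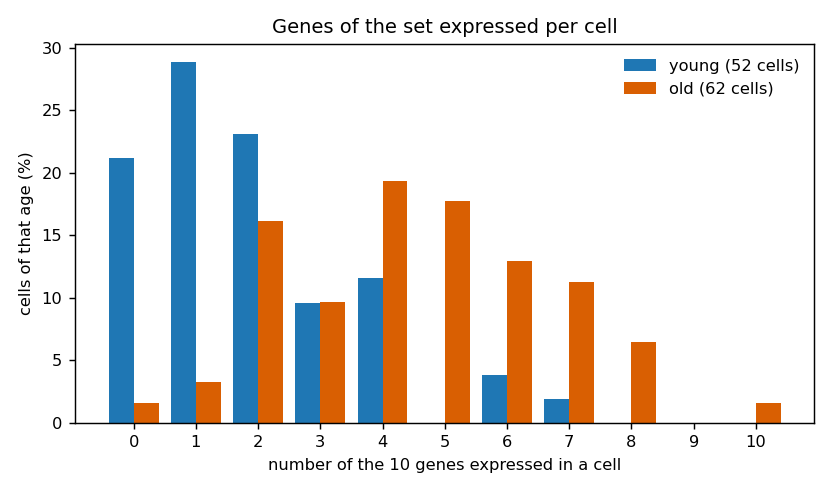
Percentage of cells (vertical axis, bars from 0) against the number of the 10 genes that a cell expressed, young in blue and old in orange. Young cells are most frequent at 1 gene (28.8%) and old cells at 4 genes (19.4%).

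Cells with only 1 or 2 genes of the set held different ones in the 2 ages. Of the 15 young cells that expressed exactly 1 gene of the set, 8 expressed *Vwf*, and of the 12 that expressed exactly 2, 11 expressed *Vwf*. Of the 10 old cells that expressed exactly 2, 6 expressed *Sdpr*, 5 *Selp* and 1 *Vwf*. Most young cells with 1 or 2 genes of the set thus expressed *Vwf*, whereas *Vwf* was present in only 1 of the 10 old cells with a pair.

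Cells in which more genes were expressed overall also expressed more of the 10. Over cells, the number of genes of the set correlated with the number of all genes expressed at r = 0.37 in young (n = 52 cells) and r = 0.47 in old (n = 62 cells), and with the log of counted reads at -0.04 and -0.19. The points of each age share 1 mouse and 1 run, and both measures are counted in the same cells. Among cells in the range of 3779 to 4319 genes expressed, which lies inside the interquartile ranges of both ages, 22 young cells expressed 1.45 ± 1.44 and 20 old cells 4.15 ± 2.08 genes of the set (mean ± SD over cells).

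**Figure D4:**
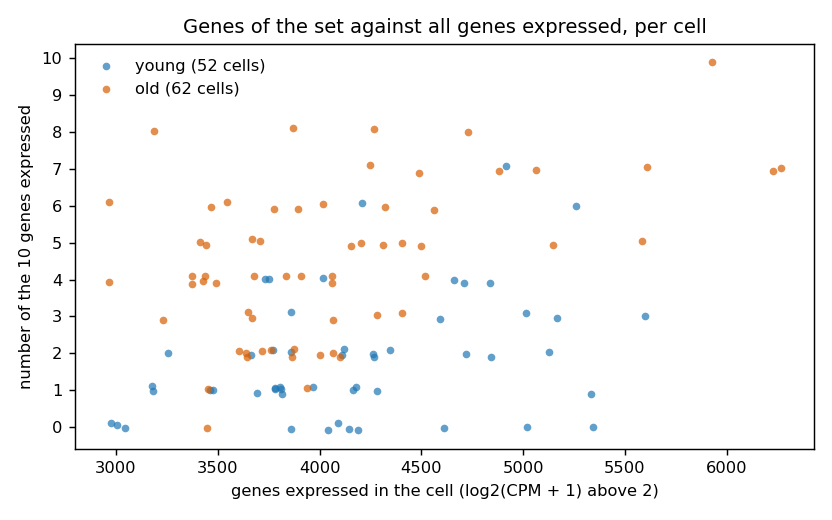
Number of the 10 genes expressed (vertical axis, points shifted slightly so that they do not hide each other) against the number of all genes expressed in the same cell, 1 point per cell, young in blue and old in orange. The ages overlap over most of the horizontal axis, with medians of 4116 and 3902 genes, and old cells lie higher over it.

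*Vwf*, the gene that the reporter marks, went with more of the other 9 genes in both ages. Young cells that expressed *Vwf* expressed 1.60 ± 1.63 of the other 9 (SD, n = 30 cells) and the rest 0.86 ± 1.17 (SD, n = 22 cells). In old cells the values were 4.62 ± 1.71 (SD, n = 37 cells) and 2.96 ± 1.54 (SD, n = 25 cells), so old cells without *Vwf* expressed more of the other genes than young cells with it. The median number of all genes expressed was 4116 and 4117 in these young cells and 3911 and 3875 in these old cells, nearly equal with and without *Vwf*. All 7 young cells that expressed *F2r* were among the 30 with *Vwf*, and 35 of 37 old cells with *Vwf* expressed *Sdpr* against 16 of 25 without.

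Pair by pair, joint expression was weak. Over the 45 pairs the median Pearson r of log2(CPM + 1) was 0.12 in young and 0.13 in old cells, against 0.014 and 0.015 over all pairs of genes that at least 10% of the cells of that age expressed, and 35 of 45 pairs were above 0 in each age, against 53.7% and 54.5% of all those pairs. In young cells *Clu* and *Gp1ba* (3.85% each) and *Selp* and *Pf4* (9.62% each) fell short of that 10%. The young values thus compare unlike sets of genes. Over the 28 young pairs with each gene expressed in at least 5 cells the median r was 0.11, and 23 were above 0. All these values are descriptions over cells of 1 library run each, with many zeros. An r of at least 0.3 was found for 4 of the 28 young pairs in which both genes were expressed in at least 5 cells, where 3% of all young pairs of genes reached it, and for 2 of 45 old pairs, where 2.11% of all old pairs did.

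The higher young correlations centred on *Itga2b*. *Itga2b* and *Pf4* had r = 0.59 (n = 52 cells), and 4 of the 13 cells with *Itga2b* expressed *Pf4* against 1 of the 39 without. *Itga2b* and *Gp9* had r = 0.43, and 8 of 13 cells with *Itga2b* expressed *Gp9* against 6 of 39 without. Leaving out each cell in turn, chosen after the data had been seen, gave r between 0.50 and 0.66 for *Itga2b* with *Pf4* and between 0.36 and 0.49 for *Itga2b* with *Gp9*, while *Itgb3* with *F2r* fell from 0.38 to 0.12 and *Itga2b* with *Selp* from 0.35 to 0.20 without 1 cell. *Gp9* with *Pf4*, the third pair of these genes, had r = 0.13, and 2 young cells expressed *Itga2b*, *Gp9* and *Pf4* together. The *Itgb3* and *F2r* value rested on cell B7. By rank (Spearman) the values were lower, 0.34 for *Itga2b* with *Pf4*, 0.32 for *Itga2b* with *Gp9*, 0.20 for *Itgb3* with *F2r* and 0.13 for *Itga2b* with *Selp*.

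In old cells other pairs led. *Pf4* and *Gp1ba* had the highest r, 0.41 (n = 62 cells), with 5 of 11 *Pf4* cells expressing *Gp1ba* against 4 of 51 others, and it lay between 0.33 and 0.47 when each cell was left out in turn. *Vwf* and *Sdpr* had r = 0.30, and *Sdpr* and *F2r* also 0.30, with 26 of 51 *Sdpr* cells expressing *F2r* against 3 of 11 others. *Itga2b* and *Pf4* had 0.25 and *Itga2b* and *Gp9* 0.05 in the old. Spearman's rho was 0.35 for *Pf4* with *Gp1ba*, 0.25 for *Vwf* with *Sdpr* and 0.29 for *Sdpr* with *F2r*, and 0.35 for *Gp9* with *F2r*, whose r was 0.26. The raised genes *Selp* and *Sdpr*, each expressed in most old cells, were nearly unrelated over cells, with r = 0.03 and 35 of 42 *Selp* cells expressing *Sdpr* against 16 of 20 others.

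**Figure D5:**
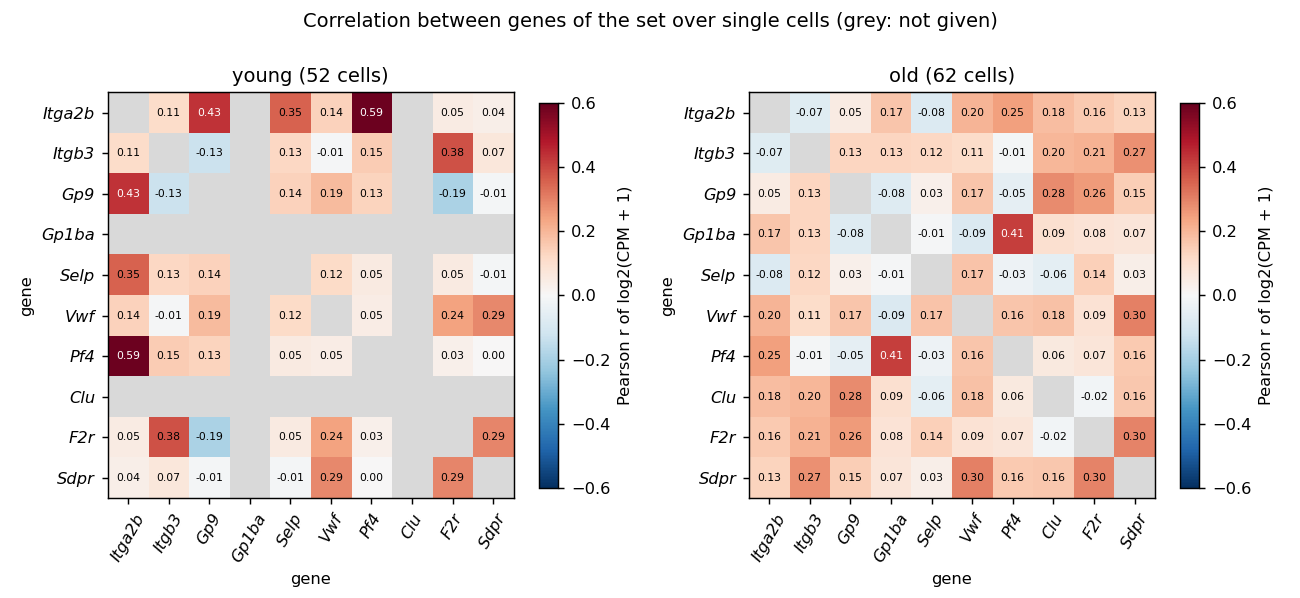
Pearson r of log2(CPM + 1) over cells for each pair of genes, young on the left and old on the right, with red above and blue below 0. Grey marks the diagonal and pairs in which a gene was expressed in fewer than 5 cells, and the darkest young square, *Itga2b* with *Pf4*, is 0.59 while the darkest old one, *Pf4* with *Gp1ba*, is 0.41.

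Cells were also divided by expression of cell cycle genes. The genes used were *Cdk1*, *Cdc25c*, *Ccna2* and *Ccnb1*, which act in S phase and mitosis, and 27 of the 52 young and 13 of the 62 old cells expressed 1 or more of them. *Itga2b* was expressed in 11 of the 27 young cells with such a gene (40.7%, 22.4 to 61.2) and in 2 of the 25 without (8%, 0.984 to 26), and these intervals overlap. The gap of 32.7 percentage points was reached by 3.05% of the 9227 genes that at least 10% of young cells expressed. It was the largest gap of the 10 genes, so that share is not comparable with the share for a gene taken at random. Of the 10 genes 8 had a higher share in the young cells with a cell cycle gene, as had 64.6% of all those genes. *F2r* was expressed in 6 of 27 and 1 of 25, whereas *Vwf* was expressed in 16 of 27 (59.3%) and 14 of 25 (56%).

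In old cells *Itga2b* was expressed in 3 of the 13 cells with a cell cycle gene and in 14 of the 49 without (28.6%, 16.6 to 43.3). Among cells without any of the 4 genes, the difference in mean *Itga2b* level was 0.75 in favour of the old cells, the opposite sign of the -0.05 over all cells used. *Sdpr* was expressed in all 13 old cells with a cell cycle gene and in 38 of 49 without, and *Selp* in 6 of 13 and 36 of 49. The part of cell cycle state in the differences between the ages was not tested beyond these splits.

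The levels of all other genes were also correlated with the number of the 10 genes expressed per cell. The genes named here were picked as the highest of many values, and no link to the set was tested. That number also went with the number of all genes expressed (r = 0.37 in young and 0.47 in old cells), which was not adjusted for. Among 9225 other genes expressed in at least 10% of young cells, the highest included *Med8* (r = 0.58, n = 52 cells), *Xpnpep1*, *Dot1l*, *Lsm8*, *Mrpl17*, *Shcbp1* and *2610318N02Rik* (r = 0.50). Among 9060 in old cells the 8 highest were *Mt1* (r = 0.50, n = 62 cells), *Gstm2*, *Kdelr2*, *Nudt5*, *Tmem59*, *Rrbp1*, *Vcl* and *Atp5o* (r = 0.45). *Vcl* encodes the actin-linking protein vinculin of adhesion sites. *Mt1* encodes a metal-binding metallothionein and was expressed in 58 of 62 old cells.

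Other genes of the platelet programme, from lists drawn up by function, are given for comparison. Over all 15014 genes 46.2% were higher in old cells, 3.91% rose by at least 1 and 4.49% fell as far. Of 15 further surface receptors 10 were higher and 5 lower in old cells, 3 rose by at least 1 and none fell as far, with a median difference of 0.25. Among the rises were integrin α6 (*Itga6*, from 3.33 to 5.98) and the tetraspanin *Cd9* (from 4.81 to 5.91), both of which HSCs also carry. Some receptors found on mature platelets were rare in both ages. *Gp5* was expressed in 1 young and 3 old cells, *Gp1bb* in 1 and 2, *Treml1* in 1 and 3, *P2ry12* in 0 and 2 and *Clec1b* in 0 and 4. *Itga2* was expressed in 2 young and 3 old cells and *F2rl2* in 1 and 3. *Tbxa2r* was expressed in 4 young and 4 old cells, *Cd36* in 1 and 1 and *P2ry1* in 4 and 1. Others of the list were not rare, with *F2rl3* expressed in 12 young and 23 old cells and *Pear1* in 25 and 36.

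Of 7 further granule and secreted products 3 were higher and 4 lower, none moved by 1, and the median difference was -0.13. The proteoglycan core gene *Srgn* was at 9.18 in young and 9.23 in old cells, *Timp3* was at 1.10 and 1.26, and the thrombospondin gene *Thbs1* at 0.91 and 0.10. The platelet chemokine gene *Ppbp* was expressed in 2 young and 2 old cells and *F13a1*, a clotting factor subunit of platelets, in 0 and 1. The rises of *Selp* and *Clu* thus had no counterpart of that size among these 7 genes.

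Of 12 cytoskeletal and enzyme genes 9 were higher and 3 lower, 6 rose by at least 1 and none fell as far, with a median of 0.77. *Plek*, which encodes pleckstrin, the main protein kinase C substrate of platelets, rose from 1.69 to 5.01 and had 15 of 52 young and 42 of 62 old cells above the limit. *Fhl1* rose from 1.01 to 3.56 and *Tgm2*, a transglutaminase, from 2.04 to 4.51, and both are genes that the study picked for being raised in these old cells, so their rises are not independent evidence of a direction of the list. The lowest differences were those of cyclooxygenase 1 (*Ptgs1*, 5.15 in young and 4.49 in old cells) and *Nbeal2*, a gene needed for α-granules (2.65 and 2.08).

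Of 10 transcription factors of the megakaryocyte programme 7 were higher and 3 lower, and 2 rose by at least 1, with a median of 0.13. *Gata2*, expressed in stem and early progenitor cells, rose from 7.11 to 9.49 and *Mef2c* from 5.59 to 7.37, while *Gfi1b* was at 2.02 and 2.46. *Tal1* (4.65 and 4.32) and *Fli1* (8.54 and 8.25) were slightly lower in the old. *Gata1*, the factor of committed megakaryocyte and erythroid cells, was expressed in 2 young and 3 old cells.

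Several of the 10 genes are also expressed in endothelial cells, so markers of other cells were set beside them. Of 10 endothelial markers listed 7 were in the table, and their summed level ran from 0 over a median of 47.4 to 1224 CPM in young and from 0 over 34.7 to 1925 CPM in old cells. *Emcn*, which HSCs share, fell from 2.47 to 0.88. *Flt4*, *Plvap* and *Cldn5* had no read in young cells and were expressed in 2, 1 and 7 old cells, and *Kdr* in 0 young and 2 old cells. Their part in the differences was not tested.

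Markers of other blood cells were measured beside them. The 4 measured genes of sorted-out lineages, *Cd48*, *Itgam*, *Cd4* and *Cd8a*, had medians of summed level of 0.161 CPM in young and 0 in old cells, with maxima of 562 and 130. The erythroid genes *Klf1*, *Epor* and *Ermap* had medians of 1.44 and 1.38 CPM and maxima of 1459 and 15.6, with *Klf1* at no read in old cells. The 6 granulocyte and macrophage genes had medians of 137 and 91.4 CPM and maxima of 1416 and 1564, with *Elane* at no read in young cells. Of these genes, *Lyz2* was expressed in 43 young and 43 old cells. The others were rare, with *Cd68* in 6 and 5, *S100a8* in 4 and 3, *S100a9* in 2 and 2, *Mpo* in 2 and 1 and *Elane* in 0 and 1. The B cell gene *Cd79b* was at 1.82 in young and 1.97 in old cells and was expressed in 12 and 16 of them. The part of these markers in the differences was not tested.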

How the data were processed

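Single-cell RNA sequencing counts of 61 young and 74 old HSCs were used. Reads of 51 bases had been aligned by the authors to mm10 with TopHat2 2.0.10, 1 alignment being kept for each, and quantified on RefSeq models by rpkmforgenes. The deposited values are raw read counts, not normalized. The 52 young and 62 old cells with at least 500000 mapped reads, at most 10% mitochondrial reads and no fewer than 3000 genes with an RPKM of 1 or more were kept, the mapping values per cell being those of the study's supplementary table. No doublet caller was run.

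Counts were divided by the total of the cell to give CPM, levels were taken as log2(CPM + 1), and differences as the mean of old minus that of young cells. With 1 mouse per age no test was made. The members and lists were chosen with earlier results of these data known. Genes named from the other platelet lists were the 3 largest rises and 2 largest falls of each list among genes expressed in at least 10% of cells of either age. Genes given only as numbers of expressing cells were named after their values were seen (*Gp5*, *Gp1bb*, *Treml1*, *P2ry12*, *Clec1b*, *Itga2*, *F2rl2*, *Tbxa2r*, *Cd36*, *P2ry1*, *F2rl3*, *Pear1*, *Ppbp*, *F13a1*, *Gata1*). The limit of the promoter windows to the bases before the start was also chosen after values had been seen. Nearest genes were the 8 with the highest r to the number of members expressed per cell. Some genes that these rules name are not reported here. Listed genes outside the table were not analysed here. Positions and promoters are from RefSeq (GRCm38.p6) and transcript lengths from GENCODE M21.

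Alternatives were all 135 cells, cells with at least 1000000 counted reads, cells without a cell cycle gene, thinning to 250000 reads, scaling by edgeR 4.0.16 (TMMwsp) or by DESeq2 1.42.0 (poscounts), a pseudocount of 0.1 CPM, ratios of mean CPM, other limits for an expressing cell, and leaving out each gene's highest cell. The steps were tested on simulated data. Python 3.11.15, numpy 2.4.6, pandas 2.3.3, scipy 1.17.1, matplotlib 3.10.9 and R 4.3.3 were used.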

Additional observations from a re-analysis of the deposited data

How the results depend on the processing

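The number of genes of the set that rose by at least 1 was 5 on log2(CPM + 1) and 8 both with a pseudocount of 0.1 CPM and as the log2 ratio of mean CPM, while the share of all genes that rose went from 3.91% to 8.21% and 19.8%, and the median difference of the set moved from 1.54 to 2.38 and 2.61. The mean number of genes expressed per young cell moved from 1.87 to 3.23 when 1 read was enough and to 1.19 at a limit of 5. With genes expressed in at least 10% of cells, 5.90% of all genes rose by at least 1, against 3.91%. A value counted as moved where a count, or the fold for which a difference of log2 levels stands, changed by over 1.5 times, a share left its 95% interval or an r changed by 0.05. Of 90 differences of single genes under the alternatives 75 stayed within this and 15 moved, and of 160 shares 139 stayed and 21 moved. The median r over the pairs stayed within it in 16 of 16 cases. No replicate of an age could be left out, since each age is 1 mouse. No paired analysis was possible because the result comes from no test and each age is 1 mouse.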

Other observations

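The cells that failed the quality limits, 9 young and 12 old, were not part of the comparisons. They expressed a mean of 0.78 and 3.08 of the 10 genes. *Vwf* was expressed in 2 of the 9 young and 7 of the 12 old cells, *Itgb3* in 0 and 7, and *F2r* in 1 and 2. With these cells included, the means over all 61 young and 74 old cells were 1.70 and 4.31 genes of the set per cell.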
